A study of Mus musculus with 17 samples.

Results

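The retinoblastoma pocket proteins and the MuvB-Myb-FoxM1 module were followed as 10 genes of the 21848 gene symbols measured: the pocket proteins Rb1, Rbl1 and Rbl2, the Myb family members Myb, Mybl1 and Mybl2, the forkhead factor Foxm1, and the MuvB core members Lin9, Lin52 and Lin54. They were chosen by symbol as members of these complexes, with earlier results of these data known, and all 10 passed the filter on low counts in the comparisons of whole mice. Counts of unique molecular identifiers (UMIs) were summed over the germinal centre (GC) B cells of each mouse and are given as CPM, which scales them by all UMIs of that mouse.

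The time course compared lymph node GC B cells (B220+, CD38-, Fas+) of wild-type hosts that had been primed with ovalbumin (OVA), had received transferred B1-8hi B cells, which recognise the hapten NP, and had been immunized in the footpad with NP-OVA. A part of the transferred cells carried the receptor DEC-205 and the rest came from Ly75-/- donors, which lack it. Treated mice were given anti-DEC-OVA, an antibody that carries OVA to DEC-205+ cells and so draws T follicular helper cell help to them. The study asked how GC B cells cycle and mutate during the burst of division that follows. The 0 h group, 7 days after immunization, held 9 mice. The 48 h groups held 6 without and 9 with anti-DEC-OVA, and the 72 h groups 8 without and 7 with it, from a larger experiment of 25 mice and a smaller one of 14. In the second comparison, GC B cells carrying the DHB-tdTomato reporter in the Rosa26 locus, some of them also H2B-GFP, were taken 72 h after anti-DEC-OVA and split by image-based sorting. The reporter is cytoplasmic where cyclin-dependent kinase 2 (CDK2) is active (CDK2 high) and nuclear where it is not (CDK2 low), and 7 mice gave cells to both populations. All sorted cells came from treated mice, the reporter allele came from 1 founder line, and the mice were adults of both sexes. The study describes the time-course cells as DEC-205+ GC B cells. Of the kept cells, 9208 of 13625 in the larger and 4369 of 10073 in the smaller experiment carried the heavy and light chain pairing of B1-8hi cells. Replicates were mice throughout.

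In resting and early G1 cells the pocket proteins hold E2F factors at the promoters of genes for DNA replication. p107 and p130, the products of Rbl1 and Rbl2, do so with the MuvB core in the DREAM complex, and cyclin-dependent kinases release them as a cell commits to division. MuvB then joins B-Myb (Mybl2) in S phase and FoxM1 in G2 to switch on the genes of mitosis. GC B cells divide fast in the dark zone, and A-Myb (Mybl1) is a well-known marker of them.

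A mouse gave 292 to 1045 cells in the time course and 278 to 1679 in each population of the CDK2 sort. The median UMI count per cell was 13024 ± 1463 (SD, n = 9) in treated mice at 48 h and 6354 ± 950 (n = 6) in untreated mice, and it was 10322 ± 965 in CDK2 high and 12585 ± 1539 in CDK2 low cells (n = 7 each). GC B cell markers were high in all groups, with summed means of 1682 to 2064 CPM over 7 of 7 genes. The summed markers of naive or memory B cells (6 of 6 measured, none at 0 in these 4 groups as a whole, Fcer2a the largest) ranged from 93.3 to 192 CPM in treated and from 233 to 408 CPM in untreated mice at 48 h, and from 95 to 174 CPM in CDK2 high and from 323 to 500.0 CPM in CDK2 low cells. T cell markers (5 of 7 measured) summed to at most 9.59 CPM at 48 h and reached 51.9 CPM in 1 CDK2 low mouse. Macrophage or dendritic cell markers (6 of 6 measured, Itgax at 0 in 4 of 7 mice of each population) summed to 4.21 to 6.30 CPM in CDK2 high and 7.64 to 24.2 CPM in CDK2 low cells. The median mitochondrial share of UMIs per cell was higher in CDK2 low cells of 7 of 7 mice, at 3.35 to 3.88% against 2.97 to 3.42%. Plasma cell markers (6 of 6) summed to 1510 to 2344 CPM in treated and 1089 to 1825 CPM in untreated mice at 48 h. The part of depth, of mitochondrial share and of these markers in the results was not tested. Cells thinned to equal depth were used only in the time course, for phase shares and, at 48 h, for fits within phases, so the calls over all cells and those of the CDK2 sort have no such comparison. The sorted populations were separate libraries, so library and population cannot be told apart. The time-course pools shared 94 cell barcodes and the CDK2 pools 6.

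The members are spread over the genome (mm39, which is GRCm39). Rb1 lies at chr14:73421113-73563507 on the minus strand, Rbl1 at chr2:156987813-157046475 (minus) and Rbl2 at chr8:91796664-91850492 (plus). Myb lies at chr10:21000834-21036883 (minus), Mybl1 at chr1:9737632-9770628 (minus) and Mybl2 at chr2:162896435-162926614 (plus). Foxm1 lies at chr6:128339518-128353147 (plus), Lin9 at chr1:180468309-180518259 (plus), Lin52 at chr12:84497260-84593293 (plus) and Lin54 at chr5:100589448-100648541 (minus). Short words of the kind bound by E2F, MuvB and Myb were searched in the promoters of members and target genes. Binding was not measured, and the target lists below were chosen by gene name. Promoters from 250 bases before to 50 bases after the RefSeq gene start (promoter table of GRCm38.p6) were found for 6 of the 10 members, with 2 starts for Lin54. They were located by exact match in GRCm39, apart from the first start of Lin54, which had no exact match there and is counted by its GRCm38.p6 sequence. The words searched on both strands were TTTGAA and TTCGAA for the cell cycle genes homology region (CHR), to which Lin54 binds, TTTCCCGC, TTTCGCGC, TTTGCCGC and TTTGGCGC for E2F, and CAACNG and TAACNG for Myb. Words can overlap within a promoter, as both E2F words of Mcm5 do. Among 32841 promoters of the same length, 19.2% held a CHR word, 2.27% an E2F word and 49.7% a Myb word. Of the 7 member promoters, 3 held a CHR word (Rbl2 and both starts of Lin54), 2 an E2F word and 3 a Myb word. Distances count from the RefSeq start, which need not match the gene bounds printed above. The Lin52 and Lin54 windows lie inside those bounds, and the Rbl1 window overlaps them. Windows of 30 bases follow 5′ to 3′ on the strand of the gene, with the word in capitals.

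Rbl1, E2F word 18 bases before the start, chr2:157046454-157046483: aagaaggcgatTTTCGCGCgctttgtcgcg
Lin52, E2F word 27 bases before the start, chr12:84498244-84498273: cggatcctcgcTTTCCCGCcgacggttggt
Rbl2, CHR word on the other strand, 201 bases before the start, chr8:91796472-91796501: ggtctttttctcTTCAAAcgagccttctga
Lin54, CHR word 162 bases before the second start, chr5:100646577-100646606: cccctgagtgcgTTTGAAggttggcggggc

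Target genes are shown for comparison, for the CHR word from the G2/M list below and for the E2F word from the G1/S list. Among genes of that list holding the word, they had the highest CDK2 high to CDK2 low difference, and were picked after those values were seen. Cdk1, of the G2/M list, also holds an E2F word, which is not shown. Cdk1, the mitotic kinase, has 2 CHR words, and Plk1, which drives mitotic entry, has 1. Uhrf1, which maintains DNA methylation at replication, and Cdc6, which licenses replication origins, hold E2F words. The Uhrf1 word belongs to its second start. The Cdc6 word, TTTCCCGC, lies on the other strand, so its window shows the reverse complement.

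Cdk1, chr10:69188796-69188825: ctgattggctccTTTGAAcgtctacgtgca
Cdk1, chr10:69188740-69188769: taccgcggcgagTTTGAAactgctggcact
Plk1, chr7:121758676-121758705: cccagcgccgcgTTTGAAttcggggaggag
Uhrf1, chr17:56611117-56611146: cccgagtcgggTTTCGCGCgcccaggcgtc
Cdc6, chr11:98798828-98798857: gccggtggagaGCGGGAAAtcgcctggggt

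A CHR word stood in 12 of 16 promoters of the G2/M target list (75%) and in 3 of 17 of the G1/S list (17.6%). An E2F word stood in 1 of 16 (6.25%) and 7 of 17 (41.2%). A Myb word stood in 56.2% of the G2/M and 47.1% of the G1/S promoters, beside 49.7% of all promoters.

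At 48 h after anti-DEC-OVA, 7 of the 10 members were higher in treated than in untreated mice and none was lower. Among all genes tested, 47.4% were called in this comparison, 26.3% higher and 21.1% lower. The largest difference was in Mybl2, and Foxm1 was the member whose groups did not overlap, which held for 8.42% of all genes. The median log2 fold change of the members was 0.25 and that of all genes 0.01.

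**Figure D1:**
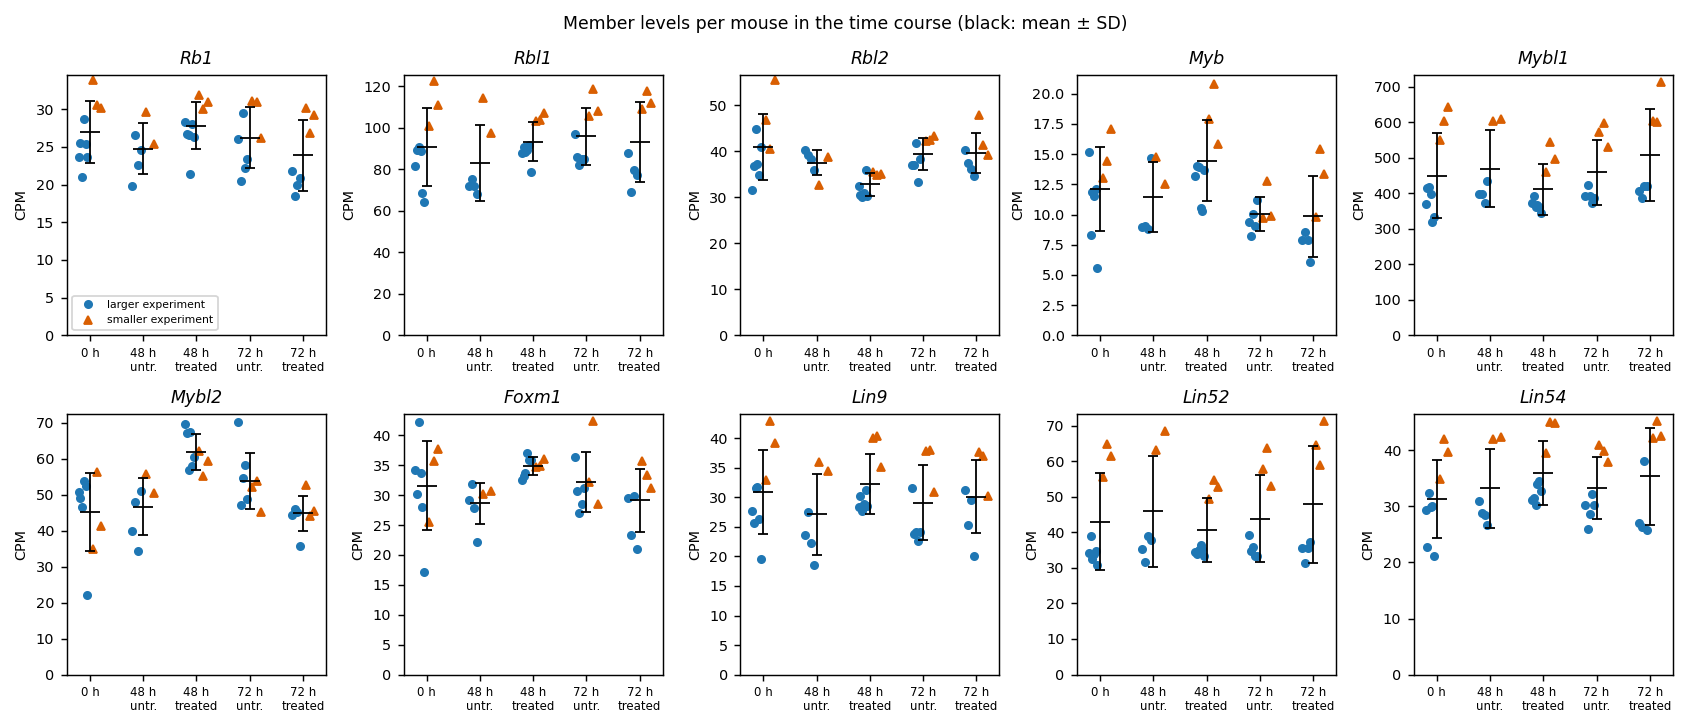
Level of each member in every mouse of the time course, in CPM of that mouse, by group, with mean and SD and with the larger and smaller experiment marked. Treated mice at 48 h stand above untreated mice in Foxm1 without overlap, while Mybl1 and Lin52 split by experiment, with every mouse of the smaller one (triangles) at the upper end.

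Of the pocket proteins, Rb1, which binds the activating E2F factors, stood between 21.4 and 31.9 CPM (median 28.0) in treated and between 19.8 and 29.6 CPM (median 25.0) in untreated mice at 48 h. Most of the range was shared, and the fitted log2 fold change was 0.24 ± 0.072 (SE, adjusted p = 0.00499, edgeR). Rbl1 ranged from 78.5 to 107 CPM (median 90.6) in treated and from 68.2 to 114 CPM (median 73.4) in untreated mice. It was called higher by 0.26 ± 0.061 on the log2 scale (adjusted p = 0.000608). Fits of each experiment alone gave 0.32 in the larger and 0.056 in the smaller one. The log2 ratios of mean CPM, without TMM, were 0.29 and -0.01. Rbl2, whose product p130 is the pocket protein of resting cells, ranged from 30 to 35.9 CPM in treated (median 32.4) and from 32.7 to 40.2 CPM in untreated mice (median 38.4). Its log2 fold change of -0.12 (95% interval -0.26 to 0.02, adjusted p = 0.15) did not pass the test. Rbl2 was thus the pocket protein whose point estimate lay below 0.

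Mybl2, which encodes a Myb protein that joins MuvB, ranged from 55.3 to 69.7 CPM in treated mice at 48 h, with a median of 60.6. In untreated mice it ranged from 34.5 to 55.8 CPM, with a median of 49.3. The treated mice were higher apart from a narrow overlap of the lowest treated with the highest untreated mouse, by 0.48 ± 0.105 (adjusted p = 0.000253). Fits of each experiment alone gave 0.57 in the larger and 0.22 in the smaller one, and mean CPM without TMM gave 0.54 and 0.15. Myb, whose product c-Myb acts in blood progenitors and dividing lymphoid cells, ranged from 10.3 to 20.8 CPM (median 13.9) against 8.77 to 14.7 CPM (median 10.8). It was called higher by 0.40 ± 0.126 (adjusted p = 0.00845), in spite of overlapping groups. Mybl1 ranged from 344 to 545 CPM (median 371) in treated and from 372 to 608 CPM (median 416) in untreated mice, and its log2 fold change of -0.10 (95% interval -0.21 to 0.00, adjusted p = 0.0986) was not called by edgeR, while DESeq2 called it lower.

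Foxm1, which encodes the forkhead factor of G2 and mitosis, stood between 32.6 and 37.1 CPM in treated mice at 48 h (median 34.8) and between 22.2 and 31.9 CPM in untreated mice (median 29.7). Every treated mouse was above every untreated mouse, and the log2 fold change was 0.36 ± 0.101 (adjusted p = 0.00298). In MuvB, Lin9, the subunit needed for activation of mitotic genes, ranged from 27.6 to 40.4 CPM (median 30.2) against 18.6 to 36.0 CPM (median 25.6). It was called higher by 0.34 ± 0.084 (adjusted p = 0.00102). Lin54, the DNA-binding subunit, was called higher by 0.20 ± 0.071 (adjusted p = 0.0207). Lin52, the subunit whose phosphorylation by DYRK1A holds p107 and p130 in DREAM, had a log2 fold change of -0.08 (95% interval -0.20 to 0.03) and was not called.

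**Figure D2:**
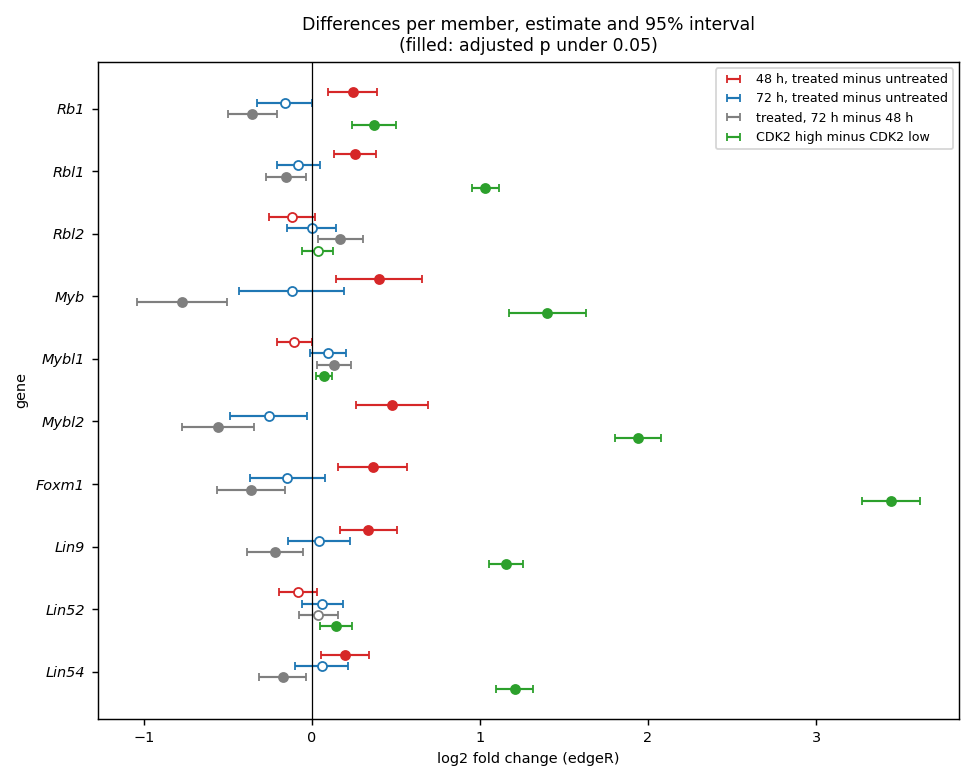
Log2 fold change of each member with its 95% interval in 4 comparisons, from the edgeR fit; filled points passed the adjusted threshold. At 48 h 7 members lie above 0 and at 72 h none passed, while in the CDK2 sort Foxm1 lies at 3.45.

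A sum over all cells of a mouse cannot separate more cells in a phase from more RNA of a gene in each cell. Counted per 100 cells, all 10 members were higher at 48 h in treated mice, for example Mybl2 with 93.7 ± 13.9 against 39.2 ± 7.84 UMIs and Rbl2 with 49.3 ± 3.70 against 31.6 ± 4.43 UMIs. The median UMI count per cell was 13024 in treated and 6354 in untreated mice. The share of all genes higher per 100 cells is not given here, so this count does not set the members apart from other genes. The calls depended on scaling. Without TMM, 5 members were called higher (Rbl1, Myb, Mybl2, Foxm1 and Lin9) and 3 lower (Rbl2, Mybl1 and Lin52), beside 1888 genes higher and 3079 lower. The share of called genes that were higher fell from 55.4% to 38.0%. Within the larger experiment alone, Rbl1, Mybl2, Foxm1 and Lin9 were called higher and Rbl2 lower, and within the smaller one, with 2 untreated mice at 48 h, no member was called. Other genes were called in the smaller one, and their count is given with the alternatives at the end. Its fitted log2 fold changes were 0.48 for Myb, 0.28 for Foxm1, 0.24 for Rb1, 0.22 for Mybl2 and 0.20 for Lin9. They were 0.10 for Lin54, 0.056 for Rbl1, 0.048 for Rbl2, -0.21 for Mybl1 and -0.26 for Lin52. In cells with the B1-8hi heavy and light chain pairing, Rbl1, Mybl2, Foxm1 and Lin9 were called. The shares of all genes called in the larger experiment alone and in these cells are not given here, so these member counts have no background beside them.

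At 72 h, edgeR called none of the 10 members between treated and untreated mice, in a comparison that called 8.55% of all genes. At an unadjusted p under 0.05 there was 1, Mybl2, with a log2 fold change of -0.26 (95% interval -0.49 to -0.03, adjusted p = 0.169), and DESeq2 called 0. Mybl2 then ranged from 35.9 to 52.7 CPM (median 45.3) in treated and from 45.2 to 70.1 CPM (median 53.0) in untreated mice. Foxm1 had a log2 fold change of -0.15 (95% interval -0.37 to 0.08) and Rb1 of -0.16 (-0.32 to 0.00). Rbl1 (-0.081), Rbl2 (-0.0019), Myb (-0.12), Mybl1 (0.095), Lin9 (0.043), Lin52 (0.060) and Lin54 (0.057) lay nearer to 0.

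Within the treated mice, 9 of 10 members differed between 72 h and 48 h, 7 lower and 2 higher, where 49.1% of all genes were called, 26.8% lower and 22.3% higher. Myb fell by 0.77 on the log2 scale (SE 0.133, adjusted p = 6.09e-06), with 6.04 to 15.4 CPM at 72 h. Mybl2 fell by 0.56 (SE 0.105, adjusted p = 2.56e-05), and its 7 mice at 72 h all lay below its 9 mice at 48 h. Groups without overlap made up 8.42% of all genes here too. Foxm1 fell by 0.36, Rb1 by 0.35, Lin9 by 0.22, Lin54 by 0.17 and Rbl1 by 0.15. Within phases, in fits chosen after seeing the data, several of these directions turned: Rbl1 was called higher in S cells (0.20, adjusted p = 0.0353), Rbl1, Lin9 and Lin54 were above 0 in both S and G2M cells, and Foxm1 was at 0.16 in G2M cells, the others uncalled. Rb1 stayed called lower in G1 cells alone (-1.05), where 5.49% of all genes were called, 4.22% lower. Myb stayed called lower in S cells (-0.33), where 25.3% were called, 12.9% higher and 12.4% lower, and in G2M cells (-0.54), where 28.7% were called, 14.3% higher and 14.4% lower. Mybl2 was called in no phase, at -0.35 in G1, -0.073 in S and -0.19 in G2M cells. Rbl2 rose by 0.17 (SE 0.067, adjusted p = 0.0341) and Mybl1 by 0.13 (SE 0.0503, adjusted p = 0.0308), and Lin52 at 0.04 was not called. Within phases, Lin52 was called higher in S cells (0.27, adjusted p = 0.0229), and Rbl2 (0.27, adjusted p = 0.0168) and Mybl1 (0.25, adjusted p = 0.00385) in G2M cells. DESeq2 called 6 of these, with Rbl1, Lin9 and Lin54 lost. Without TMM, Rb1, Myb, Mybl2 and Foxm1 were called lower and Rbl2, Mybl1 and Lin52 higher, and 65.7% of called genes were higher in place of 45.4%.

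The change with treatment at 48 h was then set against that at 72 h as an interaction, which was called for 31.5% of all genes, 18.5% higher and 13% lower. It was called for 6 members. The difference was 0.73 ± 0.155 for Mybl2 (adjusted p = 0.000383), 0.52 for Myb, 0.51 for Foxm1, 0.41 for Rb1 and 0.34 for Rbl1, and -0.20 for Mybl1. The Myb call (adjusted p = 0.0421) was lost in 9 of 10 alternatives, with values between 0.27, in B1-8hi cells, and 0.63, in the larger experiment alone. Mybl1 lost its call in 4, Rbl1 in 3, Foxm1 in 2, and Rb1 and Mybl2 in 1 each. In the larger and the smaller experiment alone, the difference was 0.95 and 0.29 for Mybl2 and 0.46 and 0.055 for Rbl1, and no member was called in the smaller one. For Lin9 it was 0.29 with an adjusted p of 0.0666, and for Rbl2, Lin52 and Lin54 it was not called. Without TMM, 37.6% of the called genes were higher in place of 58.7%, Mybl1 and Lin52 were called lower, and Myb was not called.

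Among untreated mice, edgeR called no member between 48 h and 0 h, where 0.127% of all genes were called, or between 72 h and 0 h, where 4.41% were. At an unadjusted p under 0.05 there were 2 members at 48 h (Rbl1 and Lin9) and 1 at 72 h (Myb), and DESeq2 called 0 in both. The log2 fold changes of the 10 members ran from -0.22 (Lin9) to 0.089 (Lin52) at 48 h and from -0.36 (Myb) to 0.17 (Mybl2) at 72 h. One 0 h mouse of the larger experiment had 312 cells, a median of 5709 UMIs per cell and 68.6% of cells in G1, and its Mybl2 level of 22.2 CPM was the lowest of the 39 mice. Without it no member was called either. For 72 h against 0 h, 51.8% of the called genes were higher without TMM in place of 40.6%. Over the 5 groups, Mybl2 had its highest mean at 48 h in treated mice (61.9 ± 5.11 CPM), followed by untreated mice at 72 h (53.8 ± 7.88) and 48 h (46.6 ± 7.94), the 0 h mice (45.3 ± 10.9) and treated mice at 72 h (44.8 ± 4.91). Foxm1 ran in the order 34.9 ± 1.49, 32.1 ± 5.03, 31.6 ± 7.42, 29.1 ± 5.27 and 28.7 ± 3.44 CPM for treated mice at 48 h, untreated mice at 72 h, 0 h mice, treated mice at 72 h and untreated mice at 48 h. In the orders of all 10 members, neighbouring means lay closer than the larger of their SDs, except for Mybl2 in treated mice at 48 h, which stood above, and Rbl2 in treated mice at 48 h (32.8 ± 2.48 CPM), which stood below its nearest group (37.5 ± 2.74).

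Levels of several members also differed by experiment. Group means of Mybl1 were 366 to 408 CPM in the larger and 500.1 to 639 CPM in the smaller experiment, those of Lin52 were 34.2 to 35.9 and 52.3 to 65.8 CPM, and those of Rbl1 were 71.6 to 87.6 and 105 to 113 CPM. Means of Rb1, Lin9 and Lin54 were likewise higher in every group of the smaller experiment than in any group of the larger, while those of Rbl2, Myb, Mybl2 and Foxm1 overlapped. The SDs over both experiments include this offset. The fits carry a term for the experiment.

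In the CDK2 sort, 9 of 10 members were called higher in CDK2 high than in CDK2 low cells of the same mice. The comparison called 75.1% of all genes, 36.5% higher and 38.6% lower. Without TMM, 7 members were called higher and 2 lower (Rbl2 and Mybl1), beside 2411 genes higher and 5822 lower. The study limited its own comparison to cells with a dark zone expression pattern. All kept cells were used here, whatever their zone, and the part of zone in the differences was not tested. The median log2 fold change was 1.09 for the members and -0.02 for all genes. A set of 6 members, namely Rbl1, Myb, Mybl2, Foxm1, Lin9 and Lin54, did not overlap between the populations and were higher in 7 of 7 mice, and 47.2% of all genes did not overlap.

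**Figure D3:**
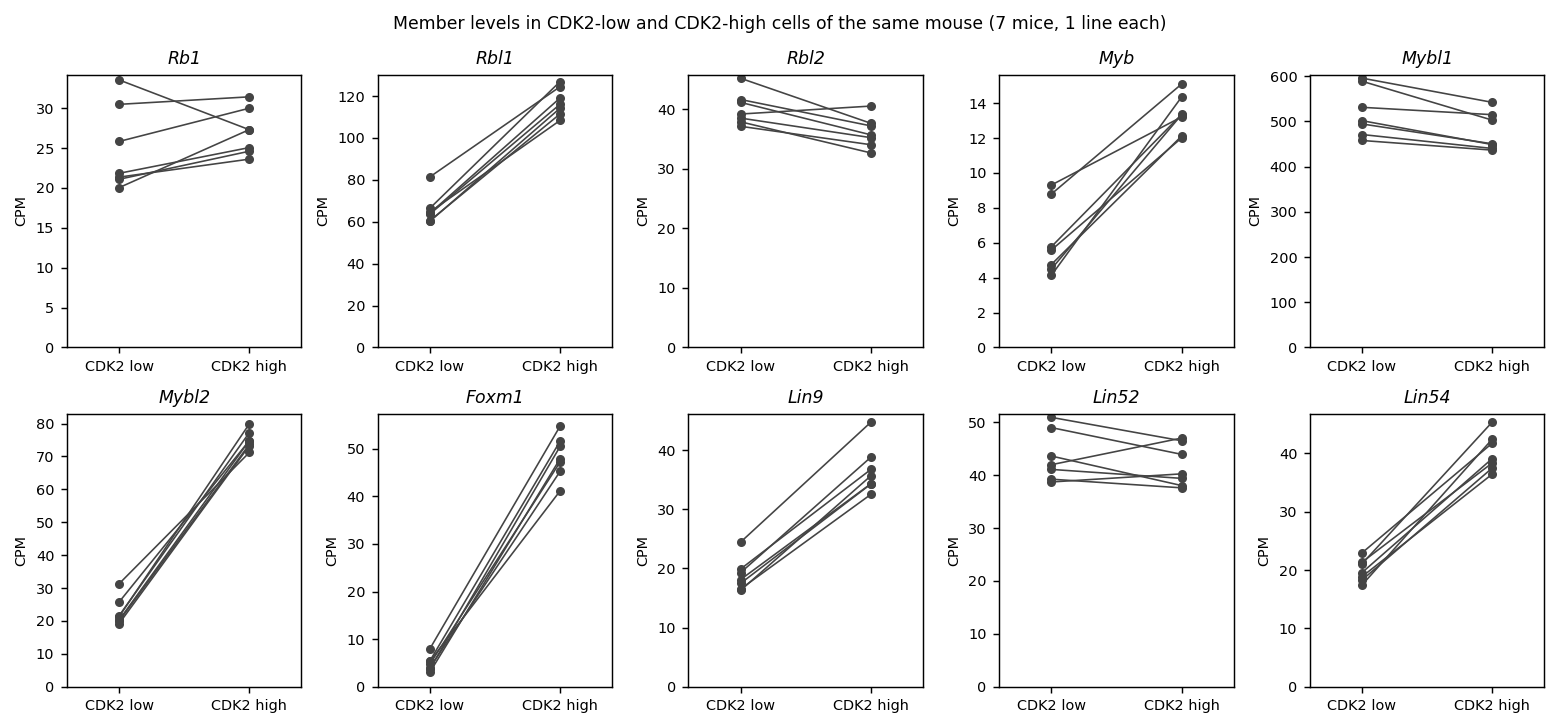
Level of each member in CPM in CDK2 low and CDK2 high cells, with a line for each of the 7 mice. All 7 lines rise for Rbl1, Myb, Mybl2, Foxm1, Lin9 and Lin54, and all 7 fall for Mybl1.

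Foxm1 stood at 41.1, 45.2, 50.5, 47.2, 51.6, 47.9 and 54.7 CPM in the CDK2 high cells of mice 1 to 7, and at 5.32, 3.95, 3.76, 4.75, 5.41, 3.03 and 7.96 CPM in their CDK2 low cells. The lowest CDK2 high value was far above the highest CDK2 low value, and the means differed 9.90-fold, with a log2 fold change of 3.45 ± 0.084 (adjusted p = 4.61e-22). Mybl2 stood at 73.7, 74.8, 79.9, 73.3, 74.8, 77.3 and 71.2 CPM in CDK2 high and at 20.0, 20.3, 21.3, 19.2, 25.7, 21.6 and 31.3 CPM in CDK2 low cells. These means differed 3.29-fold, with a log2 fold change of 1.94 ± 0.065 (adjusted p = 3.92e-19).

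Myb ranged from 12 to 15.1 CPM (median 13.3) in CDK2 high and from 4.13 to 9.30 CPM (median 5.58) in CDK2 low cells, with a log2 fold change of 1.4 ± 0.11 (adjusted p = 1.82e-11). Lin54 ranged from 36.4 to 45.4 CPM (median 39.1) against 17.4 to 22.9 CPM (median 19.6), with 1.21 ± 0.053, and Lin9 from 32.5 to 44.7 CPM (median 35.7) against 16.3 to 24.4 CPM (median 18.1), with 1.16 ± 0.05. Both subunits were higher in every mouse. Lin52 overlapped between the populations, with 37.6 to 47.0 CPM (median 40.2) in CDK2 high and 38.7 to 50.9 CPM (median 42.0) in CDK2 low cells. Rbl1 ranged from 108 to 127 CPM (median 116) against 60.2 to 81.4 CPM (median 64.0), with 1.03 ± 0.038 (adjusted p = 2.76e-18).

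Rb1 ranged from 23.6 to 31.4 CPM (median 27.3) in CDK2 high and from 20.0 to 33.5 CPM (median 21.8) in CDK2 low cells, and was higher in 6 of 7 mice. Its fitted log2 fold change was 0.37 ± 0.064 with TMM and 0.17 without, both called. Rbl2 ranged from 32.6 to 40.5 CPM against 37.1 to 45.2 CPM, and its log2 fold change was 0.03 with TMM (95% interval -0.06 to 0.12, adjusted p = 0.504) and -0.16 without, the latter called. Mybl1 was called higher by 0.07 ± 0.024 with TMM (adjusted p = 0.0101) and lower by -0.13 without TMM, and its CPM was lower in the CDK2 high cells of 7 of 7 mice, so that its direction depends on scaling. Lin52 was called higher by 0.14 with TMM and was -0.054 without, and its CPM was higher in 2 of 7 mice. Leaving out TMM moved the median of all genes by -0.20 and the share of called genes that were higher from 48.6% to 29.3%. Without mouse 1 or without mouse 5, Mybl1 lost its call and 8 members were called. With no block for the mouse, Mybl1 and Lin52 lost theirs and 7 were called, and DESeq2 called 8, without Lin52. The shares of all genes called under these settings are not given here, so these counts describe only how the calls of members depend on them.

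Cell-cycle phases were assigned from 43 S phase and 54 G2M genes that hold none of the 10 members. Phases were scored in each pool on its own, so CDK2 high and CDK2 low cells were not cut on a common scale. The larger and the smaller experiment were likewise scored apart. G1 cells made up 20.8% ± 2.7 (SD, n = 9) of treated and 51.9% ± 4.3 (n = 6) of untreated mice at 48 h, and 16.0% of CDK2 high and 57.8% of CDK2 low cells. Cells thinned to 2871 UMIs each gave 20.4% and 48.4% at 48 h. Of 35531 cells, 7.80% lay within 0.05 of a phase boundary, so the classes are ranges of a score. The share was 9.88% in CDK2 high and 11.1% in CDK2 low cells.

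**Figure D4:**
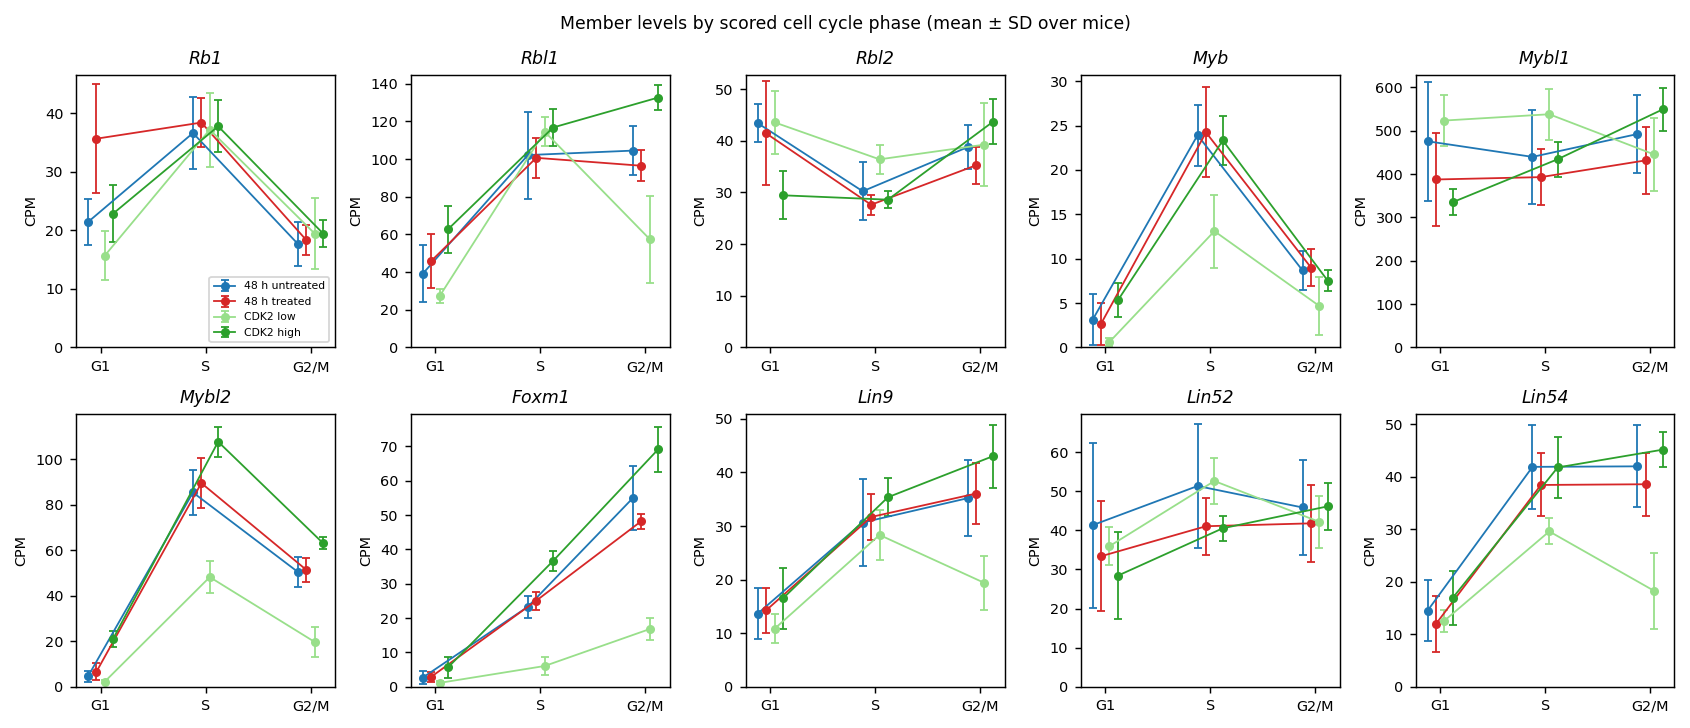
Level of each member in CPM in cells called G1, S and G2M, for 4 groups (48 h treated and untreated, CDK2 high and CDK2 low), with points for means and bars for SDs over mice. Foxm1 climbs from G1 through S to G2M, Mybl2 and Myb peak in S, and Rbl2 is lowest in S.

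Foxm1, Mybl2, Myb and Rb1 each had a phase order that held in most or all mice of the 7 groups. Foxm1 was higher in G2M than in S, and higher in S than in G1, in all 53 combinations of mouse and population. In treated mice at 48 h it averaged 2.91 ± 1.53 CPM in G1, 25.1 ± 2.62 in S and 48.2 ± 2.21 in G2M. Mybl2 was highest in S in all 53, at 6.58 ± 3.81, 89.4 ± 11 and 51.3 ± 5.16 CPM in the same mice and phases. Myb was higher in S than in G2M in all 53, at 24.2 ± 5.07 against 9.01 ± 2.13 CPM.

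Rb1 was likewise higher in S than in G2M in all 53 combinations, and higher in S than in G1 in 48 of 53. The exceptions were 5 of the 9 treated mice at 48 h. Over all 9 of them, Rb1 averaged 35.6 ± 9.28 CPM in G1 and 38.4 ± 4.17 in S. Rbl1, Lin9 and Lin54, like Mybl2 and Foxm1, were higher in G2M than in G1 in all 53. Rbl2 was the reverse of the Myb pattern, with S above G1 in 7 and G2M above S in 48 of 53, at 41.4 ± 10, 27.6 ± 1.91 and 35.3 ± 3.56 CPM in G1, S and G2M of treated mice at 48 h.

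Within phases, few members differed at 48 h. In G1 cells, where 8 members were tested (Myb and Foxm1 were too low) and 9.56% of all genes were called, 4.79% higher and 4.77% lower, Rb1 was higher and Mybl1 lower in treated mice. Rb1 ranged from 18.4 to 48.3 CPM (median 36.7) in treated and from 15.0 to 25.4 CPM (median 21.8) in untreated mice. Its log2 fold change was 0.72 ± 0.161 (adjusted p = 0.00245), with 0.57 in the larger and 1.05 in the smaller experiment by mean CPM without TMM. The estimate was above that over all cells, a difference that was not itself tested. These levels rest on 301 UMIs of Rb1 in treated and 220 in untreated mice. In thinned cells the Rb1 difference was 0.82 and did not pass (adjusted p = 0.053). Within these G1 cells, 11 of 18 G1/S targets tested were also called higher, with a median log2 fold change of 0.52. So were 10 of 16 G2/M targets, with a median of 0.85. Cells called G1 thus need not hold the same range of cells in both groups, and the part of this in the Rb1 difference was not tested. Mybl1 differed by -0.29 ± 0.079 (adjusted p = 0.0149), and in thinned cells by -0.17, which did not pass (adjusted p = 0.306).

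In S cells, where 11.4% of genes were called, 5.91% lower, Lin52 was lower by -0.29 ± 0.092 (adjusted p = 0.0289) and no other member passed. Mybl2 stood at 89.4 ± 11 CPM in treated and 85.3 ± 9.77 CPM in untreated S cells, a log2 fold change of 0.09 (95% interval -0.06 to 0.24). Its log2 fold change in G1 cells was 0.57 ± 0.370 (adjusted p = 0.375, edgeR), a wide estimate that was not called. In G2M cells, where 17.6% were called, edgeR called no member, with 1 (Mybl1) at an unadjusted p under 0.05 and 0 by DESeq2. Foxm1 stood at 48.2 ± 2.21 CPM in treated and 54.9 ± 9.29 CPM in untreated G2M cells. In thinned cells, Mybl1 was called lower in both S and G2M cells.

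**Figure D5:**
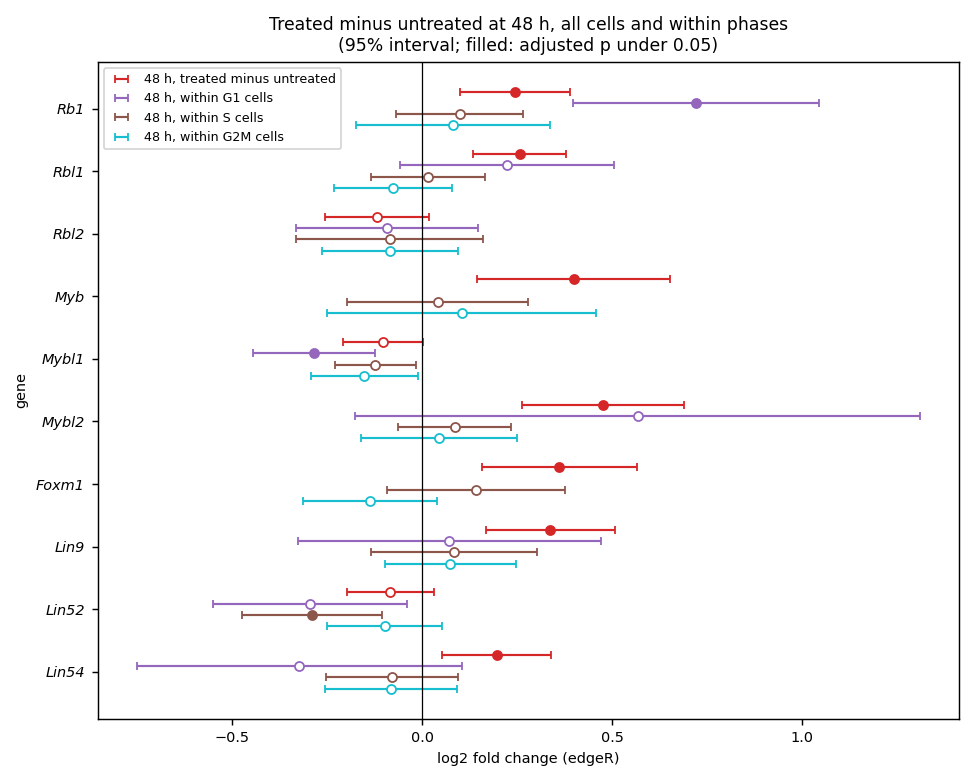
Log2 fold change of each member between treated and untreated mice at 48 h over all cells and within cells called G1, S and G2M, with 95% intervals. Mybl2 lies at 0.48 over all cells, and uncalled at 0.57 within G1, 0.09 within S and 0.04 within G2M cells. Rb1 lies at 0.24 over all cells and at 0.72 within G1 cells.

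Fits within phases of the CDK2 sort, chosen after seeing the data, called 7 of 8 members tested in G1, 10 of 10 in S and 7 of 10 in G2M cells. The shares of all genes called were 62%, 62.2% and 51.1%. Phases were scored apart in each population, so a class need not hold the same range of cells in both. Within cells called S, where 30.2% of all genes were higher and 32% lower, Foxm1 stood at 36.6 ± 2.98 CPM in CDK2 high and 6.05 ± 2.57 CPM in CDK2 low cells, a log2 fold change of 2.74, and Mybl2 differed by 1.34, Myb by 1.06, Lin54 by 0.64 and Lin9 by 0.49. Rb1 (0.23) and Rbl1 (0.20) were also called higher, and Rbl2 (-0.17), Mybl1 (-0.13) and Lin52 (-0.18) lower. Within cells called G2M, where 25.7% of all genes were higher, 7 members were called higher and none lower, with Foxm1 at 2.12, Mybl2 at 2.00, Lin54 at 1.59, Rbl1 at 1.45, Lin9 at 1.32, Myb at 1.07 and Mybl1 at 0.47. Within cells called G1, where 30.7% were higher and 31.3% lower, Mybl2 stood at 21.1 ± 3.56 against 2.26 ± 0.56 CPM, a log2 fold change of 3.27, and Rbl1 (1.28), Lin9 (0.84), Rb1 (0.73) and Lin54 (0.55) were called higher. Rbl2 stood at 29.4 ± 4.62 CPM in CDK2 high and 43.6 ± 6.15 CPM in CDK2 low G1 cells and was called lower by -0.43, and Mybl1 by -0.53. In G1 cells Rbl1 and Rbl2 thus differed in opposite directions between the populations.

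The other members of the complexes, their targets and their upstream regulators were taken as lists that, like the members, were chosen with earlier results of these data known, so their counts are descriptions. All 20 of 20 G1/S targets were higher in treated mice at 48 h, where 26.3% of all genes were, with a median log2 fold change of 0.51 beside 0.01 for all genes. Named members of that list were Rrm2, a subunit of ribonucleotide reductase, at 0.74, and, at the low end, the helicase subunit Mcm6 at 0.38 and the transcription factor E2f1 at 0.36. All 20 of 20 G2/M targets were higher as well, with a median of 0.55, from the mitotic kinases Aurka (0.73) and Plk1 (0.70) to the kinetochore protein gene Cenpf (0.38) and the kinesin gene Kif23 (0.26). At 72 h against untreated mice, 1 G1/S target was lower and no G2/M target was called, where 8.55% of all genes were called. Between treated mice at 72 h and 48 h, 20 of 20 of each list were lower, beside 26.8% of all genes.

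In the CDK2 sort, both lists were again higher in 20 of 20, where 36.5% of all genes were, with a median of 1.34 for G1/S and 3.02 for G2/M targets, beside -0.02 for all genes. Rrm2 (2.72) and the thymidylate synthase gene Tyms (2.48) led the G1/S list, and Mcm6 (0.43) and the licensing factor Cdt1 (0.29) closed it. Plk1 (3.74) and Cdk1 (3.64), whose CHR windows are printed above, led the G2/M list, with the centrosomal kinase gene Nek2 (2.62) and the cyclin gene Ccnb2 (1.97) lowest. Foxm1 at 3.45 lay within the range of the G2/M list and above that of the G1/S list.

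Of 7 other complex members, 3 were higher and 2 lower at 48 h, where 26.3% of all genes were higher and 21.1% lower. Tfdp1, the dimerisation partner of E2F, was at 0.45 and Rbbp4, the histone-binding MuvB subunit, at 0.32, while Dyrk1a, the kinase for Lin52, was at -0.19 and E2f5, which pairs with p130, at -0.47. In the CDK2 sort 6 were higher and 1 lower, where 36.5% and 38.6% of all genes were, with Rbbp4 at 0.79, Tfdp1 at 0.77, Dyrk1a at 0.08 and E2f5 at -0.53. Of the genes upstream of the pocket proteins, 9 were tested at 48 h, 6 higher and 1 lower, beside the same shares of all genes. Skp2, which marks p27 for destruction, was at 0.54, and the cyclin gene Ccnd2 was at -1.33. The CDK inhibitor genes Cdkn1a (1.02, SE 0.511) and Cdkn1b (0.03) were not called. In the CDK2 sort 8 were tested, 5 higher and 2 lower, again beside 36.5% and 38.6% of all genes, with the CDK4 and CDK6 inhibitor gene Cdkn2c at 1.54 and Skp2 at 1.41 against Ccnd3 at -0.15 and Ccnd2 at -1.41.

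The genes most like each member over the 39 time-course mice were ranked by Pearson's r of log2(CPM + 1) after the mean of each experiment was subtracted, among 10219 genes. These are descriptions, since mice of a group share treatment, depth and library. Mybl2 was most like Chaf1a (r = 0.92), a chromatin assembly gene, Mcm10 (0.89) and the helicase gene Blm (0.89). Foxm1 was most like Cit (0.87), which encodes citron kinase of cytokinesis, Lin9 like Prc1 (0.81), a gene of the spindle midzone, and Rbl1 like Pbrm1 (0.81). Rbl2 was most like Clec12a (0.81), Mybl1 like Rfx3 (0.86) and Lin54 like 2700049A03Rik (0.74), and Rb1 had the weakest nearest gene, Prdx4 (0.62). Between members, r was 0.79 for Foxm1 and Lin9, 0.71 for Rbl1 and Foxm1, 0.67 for Mybl2 and Foxm1, 0.65 for Mybl1 and Lin52, which was the nearest gene of Lin52, and -0.55 for Rbl2 and Mybl2.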

How the data were processed

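Cells were profiled with the 10x Genomics 5′ kit with hashtag antibodies per mouse. The authors deposited raw UMI counts of each cell over genes and hashtags, and tables of immunoglobulin chains (other values, used only to mark cells with the B1-8hi pairing). The matrix headers name CellRanger 8.0.1, and the submitters' processing notes list Cell Ranger 6.0.1, Seurat 5.1.0 and mm39. Mouse and group came from the authors' list of mice and hashtags. That list names 9 mice in the CDK2 sort, and 2 of them had almost no hashtag UMIs and gave no cells. Its days 7, 9 and 10 are taken as 0, 48 and 72 h, and C and N as cytoplasmic and nuclear reporter.

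Hashtags were assigned with HTODemux (Seurat 5.3.0, quantile 0.99), which left out cells with hashtags of several mice, so doublets within a mouse remain. The filter on cells (200 genes or more, mitochondrial share of UMIs below 10%) left 13625 and 10073 in the larger and smaller experiment (3114 of the latter were removed for mitochondrial UMIs), 7448 CDK2 high and 4385 CDK2 low. The quasi-likelihood test of edgeR 4.0.16 (R 4.3.3) was run on sums per mouse, after filterByExpr and TMM scaling, with experiment (time course) or mouse (CDK2 sort) as a term and Benjamini-Hochberg adjustment over all genes at 0.05. The printed CPM are without TMM. The 2 populations of a CDK2-sorted mouse were paired by the authors' list, and the 7 pairs correlated at r = 0.132 to 0.465, each best with its own partner. Phases came from CellCycleScoring, run on each pool by itself. The scripts were tested on simulated data. Total UMIs per mouse ranged from 1984426 to 20394900, which sets the precision of low members.

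Alternatives were DESeq2 1.42.0, no TMM, no filter on low counts, no filter on cells, B1-8hi cells, the highest hashtag, no experiment term, only the groups compared, each experiment alone, no replicate block, each sorted mouse left out, and thinned cells. Fits within phases of the CDK2 and 72 h against 48 h comparisons, and without the shallowest 0 h mouse, were chosen after seeing the data. The members and gene lists were chosen with earlier results of these data known. The rule named all members in every comparison, of which some that were not called are given as a range, and of each gene list the 2 highest and 2 lowest log2 fold changes at 48 h and in the CDK2 sort. One gene that this rule would name is not reported here.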

Additional observations from a re-analysis of the deposited data

Results flagged for a closer look

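One CDK2 low mouse stood apart in Rbl1, at 81.4 CPM with the next at 66.4 CPM. It was the 1 group flagged by its gap among the 70 groups of 4 to 10 mice looked at, and chance flags about 1 group in 20. That mouse also had the highest CDK2 low levels of Mybl2 (31.3 CPM) and Foxm1 (7.96 CPM) among the 7.

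The effect of treatment differed between 48 h and 72 h by the interaction test in edgeR for Rb1 (0.41 on the log2 scale), Rbl1 (0.34), Myb (0.52), Mybl2 (0.73), Foxm1 (0.51) and Mybl1 (-0.20). The call for Myb was lost in 9 of 10 alternatives, with values from 0.27 to 0.63, that for Mybl1 in 4, for Rbl1 in 3, for Foxm1 in 2, and for Rb1 and Mybl2 in 1 each. In the larger and the smaller experiment alone, the values were 0.46 and 0.055 for Rbl1, 0.95 and 0.29 for Mybl2, 0.46 and 0.26 for Rb1, 0.59 and 0.30 for Foxm1, 0.63 and 0.33 for Myb, and -0.15 and -0.36 for Mybl1. None of them was called in the smaller experiment.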

How the results depend on the processing

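Of the values of single members under the alternatives, 744 kept their side of the threshold, of which 39, uncalled under both settings, changed sign. A further 94 lost and 13 gained a call in the same direction, and 19 that were called under at least 1 of both settings changed direction. In the CDK2 sort the last were Rbl2 (-0.16), Mybl1 (-0.13) and Lin52 (-0.054) without TMM, -0.43, -0.53 and -0.084 in G1 cells and -0.17, -0.13 and -0.18 in S cells. Between treated mice at 72 h and 48 h they were Rbl1 in the smaller experiment (0.014), Rbl2 (-0.12) and Lin54 (0.18) in G1 cells, Rbl1 (0.20), Lin9 (0.070) and Lin54 (0.19) in S cells, and Rbl1 (0.14), Foxm1 (0.16), Lin9 (0.16) and Lin54 (0.13) in G2M cells. The cause was not tested.

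The members and genes called were, as reported, 7 and 4843 at 48 h, 0 and 874 at 72 h, 9 and 5019 for 72 h against 48 h, 0 and 13 for untreated mice at 48 h and 0 and 451 at 72 h against 0 h, and 6 and 3217 for the interaction. Without the experiment term these were 2 members and 2680 genes at 48 h, 217 genes at 72 h, 4 and 3104 for 72 h against 48 h, 5 genes and 77 genes for untreated mice, and 3 and 1222 for the interaction. The smaller experiment alone, with fewer mice, gave 0 and 2149, 22 genes, 3 and 2661, 0 and 3 genes, and 0 and 768 in the same order. The larger alone gave 5 members for 72 h against 48 h. B1-8hi cells gave 4 members at 48 h and 4 for 72 h against 48 h, 4 genes for untreated mice at 48 h, and 2 and 1984 for the interaction. Where only members are counted, the count of all genes is not given here. For untreated mice at 48 h, DESeq2 called 23 genes and no filter on low counts 21, and the fit of only the groups compared called 256 at 72 h.

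Within phases at 48 h, 2 members and 854 genes were called in G1, 1 and 1037 in S and 0 and 1618 in G2M cells, and in thinned cells 0 and 211, 2 and 663, and 1 and 764. For 72 h against 48 h, G1 cells gave 1 and 490, S cells 3 and 2309 and G2M cells 3 and 2639. CDK2-sorted G2M cells gave 4466 genes, against 7596 in all cells.

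Without the replicate block for the mouse, 7 members were called in the CDK2 sort in place of 9, and leaving out each mouse gave 8 to 9. Counts of all genes under these settings are not given here. Members with few UMIs limit the G1 fits, where Myb and Foxm1 could not be tested.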
